A study of Homo sapiens with 9 samples.

Results

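Transcripts of 10 genes that act as feedback regulators or transcriptional readouts of the ERK pathway were followed in NCI-H1155 cells, an established human lung cancer line with neuroendocrine features. The 10 genes were DUSP4, DUSP5, DUSP6, SPRY2, SPRY4, SPRED1, SPRED2, ETV4, ETV5 and PHLDA1. They were picked by gene symbol from a table of 23369 genes, and all 10 were among the 12642 genes tested. The set was chosen with earlier results of these data known. The cells received 1 µM foretinib for 4 h, 1 µM cabozantinib for 4 h, or DMSO, the vehicle of both drugs, starting 24 h after plating. Each group held 3 RNA-seq libraries that the submitters call biological triplicates, numbered 1, 2 and 4 for foretinib, 3, 4 and 5 for cabozantinib, and 2, 4 and 5 for DMSO. All 9 libraries came from 1 cell line. Foretinib and cabozantinib are multi-kinase inhibitors that both act on MET and on VEGF receptors. They share a quinoline ether scaffold, and foretinib differs by an added fluorine on the central phenyl ring and by a morpholinopropoxy chain where cabozantinib has a methoxy group on the quinoline.

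ERK is the last kinase of the RAS, RAF, MEK and ERK chain through which growth factor receptors drive proliferation. Active ERK switches on genes whose products damp the chain again, so the transcripts of these genes are widely read as a measure of pathway output. DUSP4 and DUSP5 are nuclear phosphatases that remove the activating phosphates from MAP kinases, and DUSP6 is the cytoplasmic phosphatase of ERK. SPRY2 and SPRY4 are Sprouty adaptors that interfere with signalling between receptors and RAF. SPRED1 and SPRED2 bring neurofibromin, which inactivates RAS, to the membrane. ETV4 and ETV5 are ETS transcription factors of the PEA3 group whose genes are held down by the repressor CIC until ERK signalling relieves it. PHLDA1 encodes a pleckstrin homology-like protein induced by growth factors.

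Sequence upstream of the start site is shown for 3 genes whose libraries were separated between a drug and DMSO, DUSP6, SPRED1 and SPRED2. Matches to 1 ETS string and to the CIC octamer can so be seen beside the values. The sequences are RefSeq's for build GRCh38.p14 and run 5′ to 3′ on the gene's own strand up to the base before the start. The RefSeq promoter table matched 6 of the 10 genes, with 9 promoters in all, and not DUSP4, DUSP5, ETV4 and ETV5. DUSP6 lies at chr12:89352502-89352751 on the minus strand, SPRED1 at chr15:38252586-38252835 on the plus strand, and the upstream start of SPRED2 at chr2:65432600-65432849 on the minus strand. Capitals mark the ETS string GGAAG, or CTTCC where it lies on the other strand. GGAA without the closing G is neither marked nor counted. In DUSP6 capitals also mark the CIC octamer TCAATGGA, printed as TCCATTGA because it lies on the other strand.
DUSP6: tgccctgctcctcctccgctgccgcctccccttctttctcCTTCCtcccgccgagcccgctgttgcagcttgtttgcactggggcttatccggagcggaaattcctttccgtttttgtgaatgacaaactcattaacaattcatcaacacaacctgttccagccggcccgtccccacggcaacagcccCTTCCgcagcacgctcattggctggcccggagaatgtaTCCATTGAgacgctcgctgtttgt
SPRED1: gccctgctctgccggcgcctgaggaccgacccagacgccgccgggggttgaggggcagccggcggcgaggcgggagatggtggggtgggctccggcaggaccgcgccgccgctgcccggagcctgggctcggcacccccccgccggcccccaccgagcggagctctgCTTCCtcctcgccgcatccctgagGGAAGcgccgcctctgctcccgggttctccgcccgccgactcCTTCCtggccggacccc
SPRED2: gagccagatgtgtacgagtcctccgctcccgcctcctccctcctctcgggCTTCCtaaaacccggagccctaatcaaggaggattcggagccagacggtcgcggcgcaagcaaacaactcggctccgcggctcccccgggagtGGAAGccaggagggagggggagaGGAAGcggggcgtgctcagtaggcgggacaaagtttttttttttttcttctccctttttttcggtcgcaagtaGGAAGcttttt
The DUSP6 sequence holds 2 GGAAG strings and 1 CIC octamer, which lies 24 to 17 bases before the start. The SPRED1 sequence holds 3 GGAAG strings and that of SPRED2 holds 4.

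Each motif was searched on both strands in the 250 bases before each start of the 35116 promoters of the table. The CIC octamer, written as TCAATGAA, TCAATGGA, TGAATGAA or TGAATGGA, was in 1 of the 9 promoters of the feedback genes and in 3.18% of all promoters. The ETS string GGAAG was in 8 of the 9, against 65.1% of all promoters, and SPRY4 had no match to that string. The longer ETS site CCGGAAGT, which contains GGAAG, was in 0 of the 9 (3.42% of all). The AP-1 site TGANTCA was in 0 of the 9 (6.57% of all), the cAMP response element TGACGTCA in 0 (1.65%) and the CArG box of serum response factor in 0 (1.16%). A match describes the letters of these windows and says nothing of binding in these cells.

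Values below are normalised read counts, and a value with an error is a mean ± SD (n = 3 libraries). Recovered read totals ran from 26996023 to 34062153 per library with foretinib, from 27264766 to 27522332 with cabozantinib and from 27257862 to 32986439 with DMSO. Of the 12642 tested genes, 16.3% to 21.0% were at 0 in a foretinib library, against 4.41% to 5.48% in a cabozantinib library and 5.30% to 10.9% in a DMSO library. Markers of the labelled cell type were present: all 12 neuroendocrine markers were above 0 in all 9 libraries. Their summed level was 113475 to 118883 with foretinib, 120521 to 128077 with cabozantinib and 111113 to 119757 with DMSO. Of the defining markers of other cell types, PTPRC and CD3E of leukocytes, COL3A1, DCN and PDGFRB of fibroblasts, CDH5, VWF and KDR of endothelial cells and HBA1 and HBB of red cells were at 0 in all 9 libraries. Other members of these lists were above 0: 1 of 5 leukocyte markers and 1 of 6 fibroblast markers in all 9 libraries. The leukocyte sum was 9.87 to 755 with foretinib, 174 to 299.7 with cabozantinib and 4.89 to 228 with DMSO. The fibroblast sum was 869 to 1194 with foretinib, 767 to 1049 with cabozantinib and 453 to 1345 with DMSO. Of 6 epithelial markers 2 were above 0 in all 9 libraries and KRT19 was at 0 in all, with sums of 2603 to 5439 with foretinib, 4272 to 6674 with cabozantinib and 3962 to 6554 with DMSO. The endothelial and red cell sums were 0 with foretinib, up to 53.2 and 141 with cabozantinib, and up to 87.4 and 0 with DMSO. The part of these markers in the results was not tested.

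In vehicle-treated cells the feedback genes covered a wide range of levels, led by DUSP4 and DUSP6. Per kilobase of exon, with lengths from GENCODE v29, DUSP4 stood at 1112 ± 47.3 normalised reads in DMSO libraries and DUSP6 at 709 ± 77.5. The DMSO ranges of these 2 genes did not overlap each other or those of the genes below them. DUSP5 followed at 511 ± 50.3, SPRED2 at 441 ± 83.2, ETV4 at 429 ± 134, SPRY4 at 417 ± 136 and ETV5 at 368 ± 19.9 reads per kilobase, and each of these neighbours overlapped the next. PHLDA1 at 207 ± 121 and SPRED1 at 199 ± 22.3 also overlapped one another. SPRY2 was the lowest at 76.3 ± 87.3 reads per kilobase, with 1 DMSO library at 1.00 read. DUSP6, SPRY4, ETV4, ETV5 and PHLDA1 overlap annotated genes on the opposite strand, and SPRED2 and ETV5 overlap genes on their own strand. The strand setting of the counting is not given in the sources used here, so reads of such neighbours could not be separated.

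**Figure D1:**
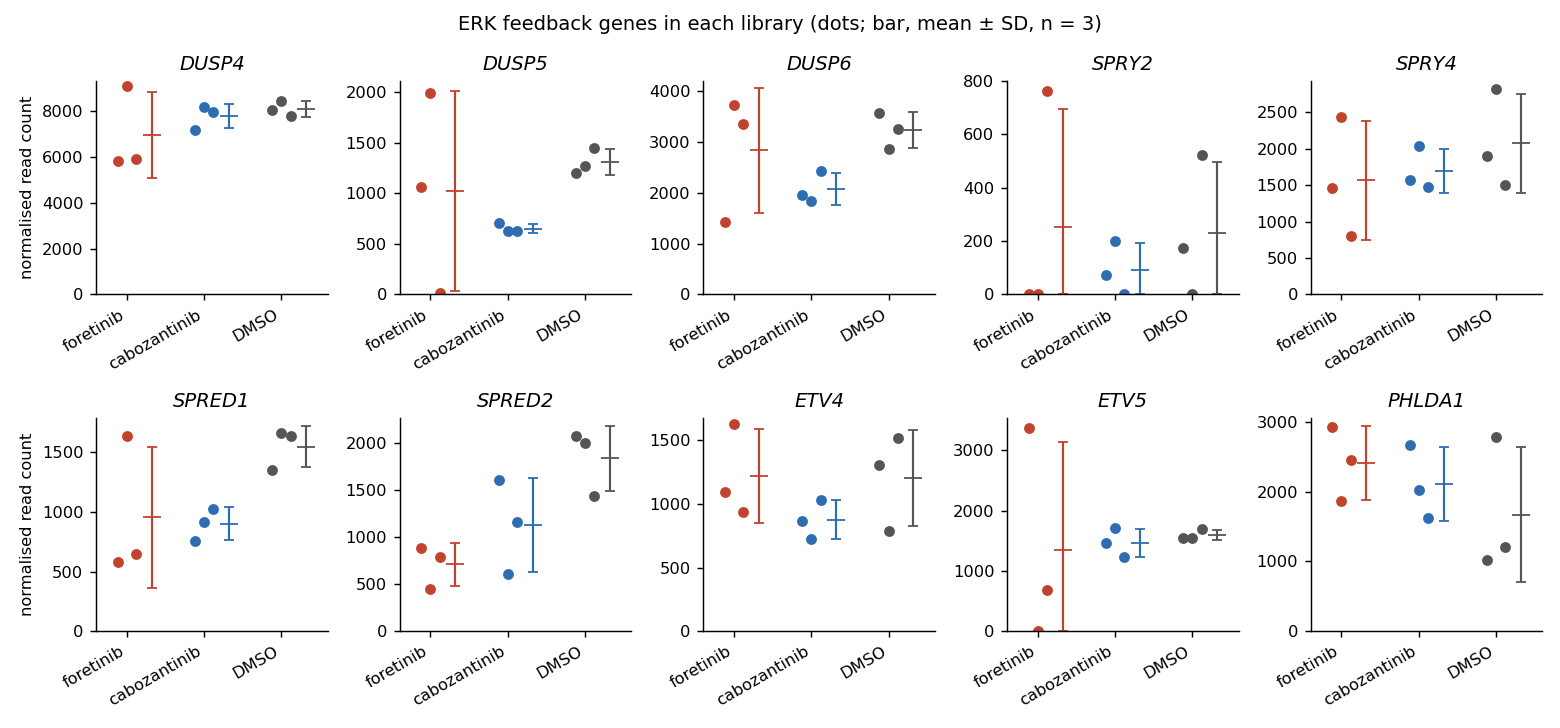
Normalised read count (y axis, linear from 0) of each of the 10 genes in the foretinib, cabozantinib and DMSO libraries; dots are single libraries and bars are the mean ± SD of 3, with lower ends below 0 drawn to 0. SPRED2 with foretinib and DUSP5, DUSP6 and SPRED1 with cabozantinib lie below every DMSO library.

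No feedback gene passed the test in any comparison. With limma on log2(value + 1), 0 of the 10 had a Benjamini-Hochberg adjusted p below 0.05 with foretinib against DMSO, with cabozantinib against DMSO or with foretinib against cabozantinib. The background was the same, since 0% of the 12642 tested genes passed in the first comparison, 0% in the second and 0% in the third. On recovered whole reads, edgeR's quasi-likelihood test called 0 genes in each comparison and DESeq2 called 650, 47 and 618 genes in that order, with 0 of the 10 among them under either tool. The smallest limma adjusted p over all genes was 0.358 with foretinib against DMSO, 1.000 with cabozantinib against DMSO and 0.377 with foretinib against cabozantinib. At an unadjusted p below 0.05, 274 genes were higher and 872 lower with foretinib than with DMSO, 111 were higher and 55 lower with cabozantinib than with DMSO, and 231 were higher and 1021 lower with foretinib than with cabozantinib. The values of the 10 genes are therefore given as levels with their spread. In RNA from whole cultures, fewer cells with a transcript and less of it per cell cannot be told apart.

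Foretinib libraries had less SPRED2 than any DMSO library, the clearest separation of the set from the vehicle for this drug. SPRED2 stood at 884, 451 and 790.4 normalised reads in foretinib libraries 1, 2 and 4, against 2067, 1998 and 1436 in DMSO libraries 2, 4 and 5. The highest foretinib value was below the lowest DMSO value. The means were 709 ± 228 with foretinib and 1834 ± 346 with DMSO, a 2.59-fold lower mean with foretinib. The limma difference was -1.41 on the log2(value + 1) scale (SE 0.56, 95% interval -2.61 to -0.21), with an unadjusted p of 0.0245 and an adjusted p of 0.511. Tested genes within 1.5-fold of the same mean level had a median difference that left -1.23 for SPRED2 relative to them. By unadjusted p SPRED2 ranked 603 of 12642 genes.

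SPRED2 was the exception among the 10 genes, and its kind of separation was common in the table. It was 1 of 10 genes below DMSO without overlap in foretinib libraries, where the share over all tested genes was 7.69%, and 5.42% among the tested genes with a mean of at least 500. It was also 1 of 10 at an unadjusted p below 0.05 in the lower direction, where the share over all tested genes was 6.9%. A share of 1 in 10 is near both backgrounds. None of the 10 was above DMSO without overlap with foretinib, and the share over all tested genes in that direction was not counted.

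SPRED1, the other family member in the set, had 2 low foretinib libraries and 1 at the vehicle level. It stood at 581, 1636 and 643 normalised reads with foretinib, against 1348, 1658 and 1637 with DMSO, and foretinib library 2 lay within the DMSO range. The means were 954 ± 592 with foretinib and 1548 ± 174 with DMSO, with a log2 difference of -0.86 (95% interval -2.06 to 0.34, limma adjusted p 0.575), and -1.33 without foretinib library 2. With cabozantinib SPRED1 was below every DMSO library, at 752, 919 and 1028 normalised reads. The cabozantinib mean of 899.6 ± 139 was 1.72-fold lower than that of DMSO, and the log2 difference was -0.79 (95% interval -1.99 to 0.41, limma unadjusted p 0.180, adjusted p 1.000).

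SPRED2 with cabozantinib overlapped the vehicle through 1 library. It stood at 1605, 609.9 and 1162 normalised reads with cabozantinib, a mean of 1126 ± 499, against 1834 ± 346 with DMSO, and cabozantinib library 3 lay above the lowest DMSO library. The log2 difference was -0.79 (95% interval -1.99 to 0.41, limma adjusted p 1.000), with -0.41 without cabozantinib library 4 and -1.10 without cabozantinib library 3. Summed, the 2 SPRED genes were at 1465, 2088 and 1433 normalised reads with foretinib and 2357, 1529 and 2190.0 with cabozantinib, against 3415, 3656 and 3073 with DMSO. All 6 drug libraries lay below all 3 DMSO libraries in this sum, with a mean ratio to DMSO of 0.492 for foretinib and 0.599 for cabozantinib. The foretinib and cabozantinib sums overlapped. This sum was set up after the values of the series were known and is a description, with no test.

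**Figure D2:**
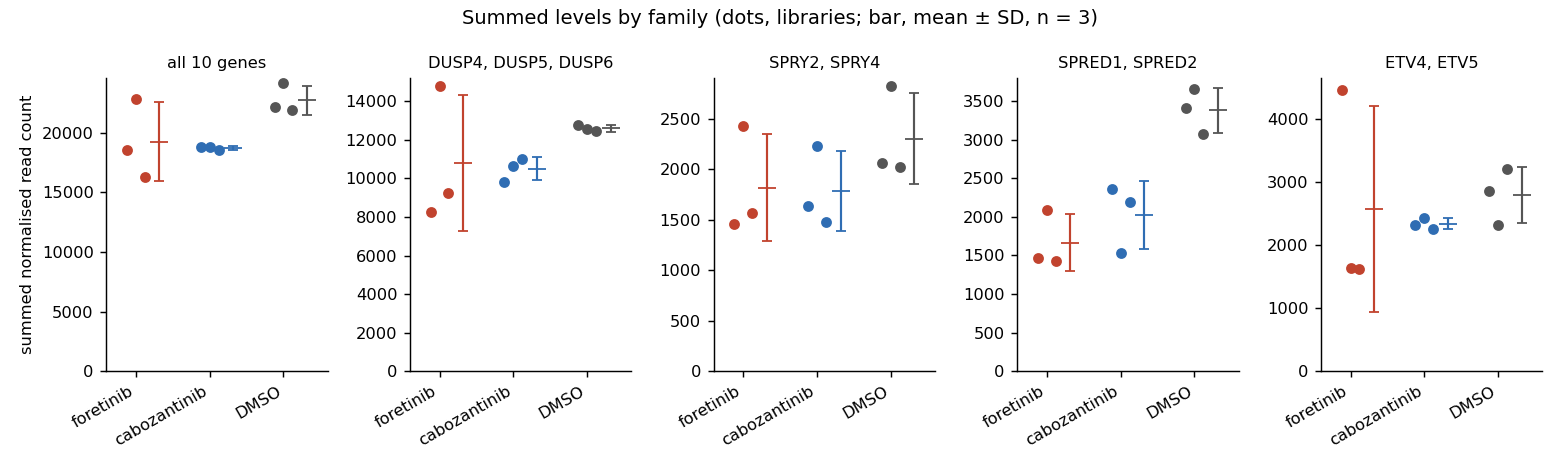
Summed normalised read count (y axis, linear from 0) of all 10 genes and of the phosphatase, Sprouty, SPRED and PEA3 groups in each foretinib, cabozantinib and DMSO library (dots), with mean ± SD of 3. The SPRED sums of the 6 drug libraries lie between 1433 and 2357, all below the DMSO libraries at 3073 to 3656.

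Among the MAP kinase phosphatases, cabozantinib libraries were the lower ones for DUSP5 and DUSP6. DUSP5 stood at 704, 625 and 624 normalised reads in cabozantinib libraries 3, 4 and 5, against 1200.3, 1271 and 1449.8 in DMSO libraries 2, 4 and 5. These groups were narrow and well apart, with means of 651 ± 46.1 with cabozantinib and 1307 ± 129 with DMSO, a 2.01-fold lower mean. The limma difference was -1.002 with a 95% interval of -3.90 to 1.89 (unadjusted p 0.469), from an error that pools the spread of all 9 libraries. With foretinib DUSP5 was at 1059.9, 1995 and 16.7 normalised reads, so that 1 foretinib library was above and the other two were below all 3 DMSO libraries. With foretinib against DMSO the log2 difference of DUSP5 was -1.96 (95% interval -4.86 to 0.93, limma adjusted p 0.593), and it was 0.16 without foretinib library 4.

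DUSP6 followed the same order in cabozantinib libraries and was spread in foretinib libraries. It stood at 1956, 1842 and 2427 normalised reads with cabozantinib, against 3561, 2858 and 3247 with DMSO, with no overlap. The means were 2075 ± 311 with cabozantinib and 3222 ± 352 with DMSO, a 1.55-fold lower mean. The log2 difference was -0.64 (SE 0.38, 95% interval -1.45 to 0.17, limma unadjusted p 0.114, adjusted p 1.000), and it was -0.65 relative to genes of the same level. With foretinib DUSP6 was at 1426, 3723 and 3339.5 normalised reads, so library 1 alone was below the vehicle. The foretinib mean was 2829 ± 1231, and the log2 difference from DMSO was -0.30 (95% interval -1.11 to 0.51, limma adjusted p 0.768) and 0.14 without foretinib library 1.

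DUSP4, the most abundant of the 10 genes, differed little from the vehicle with either drug. It stood at 5796, 9092 and 5893 normalised reads with foretinib, a mean of 6927 ± 1876, and at 7179, 8157 and 7963 with cabozantinib, a mean of 7767 ± 518. In DMSO libraries it was at 8025, 8435 and 7753, a mean of 8071 ± 343. Foretinib library 2 was above and libraries 1 and 4 were below every DMSO library. The log2 difference was -0.25 with foretinib (95% interval -0.71 to 0.20, limma adjusted p 0.664; -0.46 without foretinib library 2 and -0.14 without foretinib library 1) and -0.06 with cabozantinib (95% interval -0.51 to 0.40, limma adjusted p 1.000). These are the narrowest intervals of the 10 genes. DUSP4 made up 31.2% to 39.8% of the summed reads of the 10 genes in foretinib libraries, 38.1% to 43.3% in cabozantinib libraries and 34.9% to 36.2% in DMSO libraries.

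The Sprouty genes did not separate the groups. SPRY4 stood at 1463, 2429 and 807 normalised reads with foretinib and 1569, 2035 and 1476 with cabozantinib, against 1893, 2825 and 1507 with DMSO. All 3 groups overlapped, and the log2 difference from DMSO was -0.50 with foretinib (95% interval -1.50 to 0.51, limma adjusted p 0.693) and -0.26 with cabozantinib (95% interval -1.26 to 0.75, limma adjusted p 1.000). With foretinib it ran from -0.88 without foretinib library 2 to -0.09 without foretinib library 4, and with cabozantinib from -0.46 without DMSO library 5 to -0.01 without DMSO library 4. SPRY2 was at 0, 0 and 762 normalised reads with foretinib and 72.5, 199 and 1.02 with cabozantinib, against 173, 1.00 and 522 with DMSO. Each group held libraries near 0 beside libraries well above it. Its 95% intervals on the log2 scale ran from -9.67 to 4.40 with foretinib against DMSO and from -7.90 to 6.16 with cabozantinib against DMSO, so no direction can be read for SPRY2.

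Neither PEA3 factor of the set separated from the vehicle with either drug, and ETV5 was uneven with foretinib. ETV4 stood at 1090.3, 1632 and 934 normalised reads with foretinib and 868, 725 and 1030.1 with cabozantinib, against 1305, 787 and 1515 with DMSO, and the groups overlapped. Its log2 difference from DMSO was 0.03 with foretinib (95% interval -1.11 to 1.17; -0.20 without foretinib library 2 and -0.25 without DMSO library 4) and -0.42 with cabozantinib (95% interval -1.56 to 0.72). ETV5 stood at 3375, 6.72 and 685 normalised reads with foretinib and 1456, 1707 and 1232 with cabozantinib, against 1546, 1539 and 1692 with DMSO. The 3 foretinib libraries of ETV5 lay 1 above and 2 below the whole DMSO range. The log2 difference of ETV5 was -2.61 with foretinib (95% interval -5.91 to 0.70, limma adjusted p 0.547) and -0.06 without foretinib library 2, and it was -0.13 with cabozantinib (95% interval -3.44 to 3.18).

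PHLDA1 was the member whose drug means were above the vehicle mean in both drug groups. It stood at 2929.6, 1866 and 2451 normalised reads with foretinib and 2671, 2024 and 1627 with cabozantinib, against 1021, 2792 and 1203 with DMSO. The groups overlapped through DMSO library 4, which was above 2 of the 3 foretinib libraries and all 3 cabozantinib libraries. The log2 difference was 0.65 with foretinib (95% interval -0.29 to 1.60, limma adjusted p 0.583) and 0.45 with cabozantinib (95% interval -0.49 to 1.39, limma adjusted p 1.000). Leaving out DMSO library 4 gave 1.10 with foretinib and 0.90 with cabozantinib, and leaving out DMSO library 2 gave 0.37 with foretinib and 0.17 with cabozantinib.

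**Figure D3:**
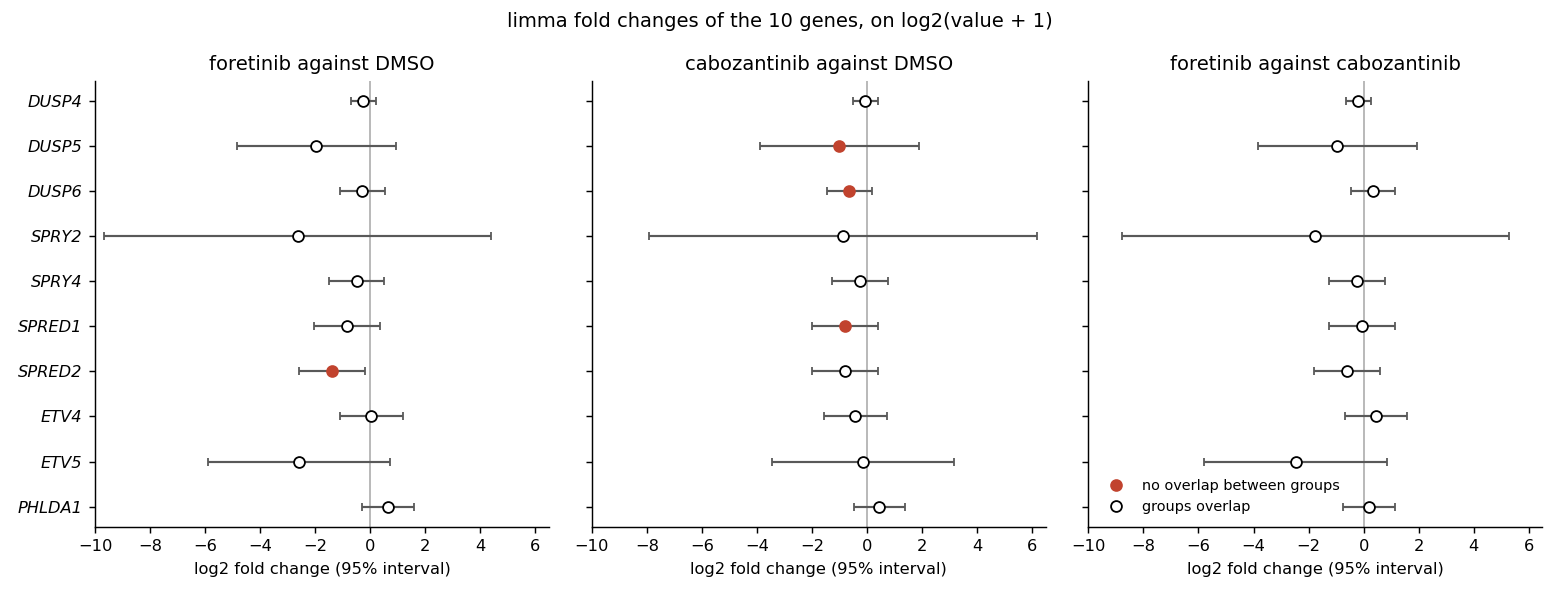
Log2 fold change with its 95% interval (x axis) of each gene for foretinib against DMSO, cabozantinib against DMSO and foretinib against cabozantinib, from limma on log2(value + 1) with 3 libraries a group; filled points mark genes whose groups did not overlap. The SPRED2 interval with foretinib against DMSO, -2.61 to -0.21, lies wholly below 0 and all other intervals include 0; no adjusted p was below 0.05.

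Read as a set, the 10 genes had mostly negative differences from the vehicle with both drugs. With cabozantinib, 3 of 10 genes (DUSP5, DUSP6 and SPRED1) were below DMSO without overlap, against 4.71% of all tested genes and 5.07% of those with a mean of at least 500. None was above without overlap, where the share over all tested genes was likewise not counted. At an unadjusted p below 0.05 in the lower direction the count was 0 of 10, where the share over all tested genes was 0.435%. Both rest on an error that pools the spread of all 9 libraries, those of foretinib included. The median log2 difference of the 10 genes from DMSO was -0.68 with foretinib and -0.53 with cabozantinib. The cabozantinib median stood at -0.32 without DMSO library 2 and at -0.35 without DMSO library 5. Over all tested genes the medians were -0.34 with foretinib and 0.04 with cabozantinib, and over those with a mean of at least 500 they were -0.10 with foretinib and 0.01 with cabozantinib. The sign was negative for 8 of 10 genes with foretinib and for 9 of 10 with cabozantinib. The share of negative signs over all tested genes was not counted, and their median with foretinib, given above, was itself negative. Other fits turned the sign of SPRY2, DUSP5, DUSP6 or ETV4 with foretinib and of DUSP4, SPRY2 or SPRY4 with cabozantinib. The difference between the drugs in these counts was not tested. Both comparisons use the same 3 DMSO libraries.

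Summed over the 10 genes, the level was even in cabozantinib libraries and uneven in foretinib libraries. It was 18605, 22831 and 16321 normalised reads with foretinib and 18834, 18843 and 18571 with cabozantinib, against 22139.9, 24163 and 21961 with DMSO. All 3 cabozantinib sums lay below the DMSO sums, while foretinib library 2 lay within the DMSO range. The means were 19252 ± 3303 with foretinib, 18749 ± 154 with cabozantinib and 22755 ± 1223 with DMSO. Like the sum of the SPRED genes, this sum is a description, with no test. DUSP4 alone made up 38.1% to 43.3% of it in cabozantinib libraries. The phosphatase trio gave 8282, 14810.0 and 9249 with foretinib and 9839, 10623 and 11015 with cabozantinib, against 12786, 12564 and 12449.8 with DMSO. Foretinib library 2 was the highest of all 9 and libraries 1 and 4 were the lowest, with cabozantinib between them and the vehicle.

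The foretinib libraries disagreed on which genes were low. In foretinib library 1, 7 of the 10 genes were below every DMSO library, in library 2 there were 3 and in library 4 there were 6. Among tested genes with a mean of at least 500 those shares were 32.8%, 32.6% and 34.3% in foretinib libraries 1, 2 and 4. SPRY2, whose mean was under 500, counted in libraries 1 and 2 at 0 reads, against a lowest DMSO value of 1.00. The share over all tested genes was not counted. In cabozantinib libraries 3, 4 and 5 the counts were 5, 5 and 6 of 10, against 21.9%, 22.4% and 23.9% of the genes with a mean of at least 500. All 10 genes of cabozantinib library 5 were below the mean normalised count in DMSO. So were 9 in library 3 and 7 in library 4. Over all tested genes that share was 52.8% in library 5, 52.5% in library 3 and 52.2% in library 4. For foretinib the counts were 8, 3 and 7 of 10 in libraries 1, 2 and 4, against 55.7%, 58.1% and 58.8%. SPRED2 was at its lowest in foretinib library 2, where DUSP4, DUSP5 and DUSP6 were at their highest. Foretinib library 4 held the lowest DUSP5 of the 9 libraries together with the highest SPRY2.

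**Figure D4:**
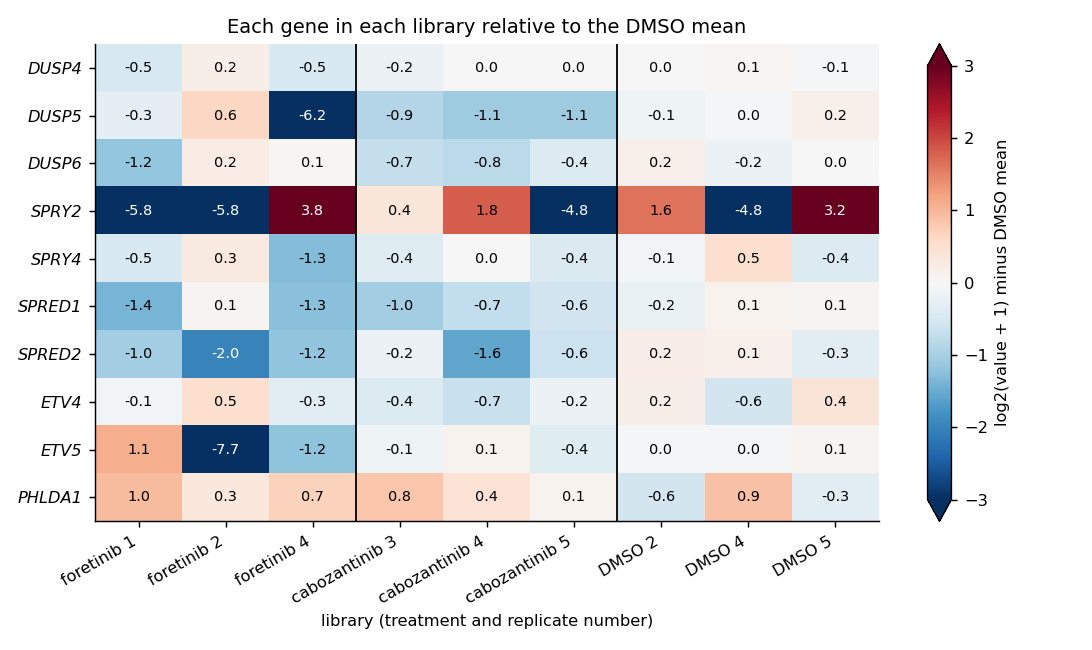
Log2(value + 1) minus its mean over the DMSO libraries, for each gene (rows) in each of the 9 libraries (columns, grouped as foretinib, cabozantinib and DMSO); colours stop at 3 units either way and the printed numbers go on. Blue cells are evenly spread over the cabozantinib columns for DUSP5, DUSP6 and SPRED1, whereas in the foretinib columns single libraries carry the extreme values of DUSP5, SPRY2 and ETV5.

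The spread between foretinib libraries was wide for some of these genes and not for others. For DUSP5 the coefficient of variation was 96.6% with foretinib, 7.08% with cabozantinib and 9.84% with DMSO. Genes within 1.5-fold of its level had median coefficients of 68.7% with foretinib, 31.9% with cabozantinib and 36.1% with DMSO. For ETV5 the coefficient was 131% with foretinib, 16.2% with cabozantinib and 5.41% with DMSO, against medians of 54.2%, 26.3% and 30.1% in those groups for genes of its level. DUSP4 and DUSP6 were close to genes of their level with foretinib, at 27.1% against a median of 25.5% and at 43.5% against 39.8%. SPRED2 had coefficients of 32.1% in foretinib libraries, 44.3% in cabozantinib libraries and 18.9% in DMSO libraries, whereas genes of its level had 60.03% with foretinib, 28.9% with cabozantinib and 32.5% with DMSO. ETV4 and PHLDA1 were tighter than genes of their level with foretinib, at 30.1% against a median of 63.7% and at 22.1% against 45.3%, while in DMSO libraries they were at 31.2% and 58.2%. The share of genes listed at 0 moved with the drug, as given above, and its part in these values was not tested.

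**Figure D5:**
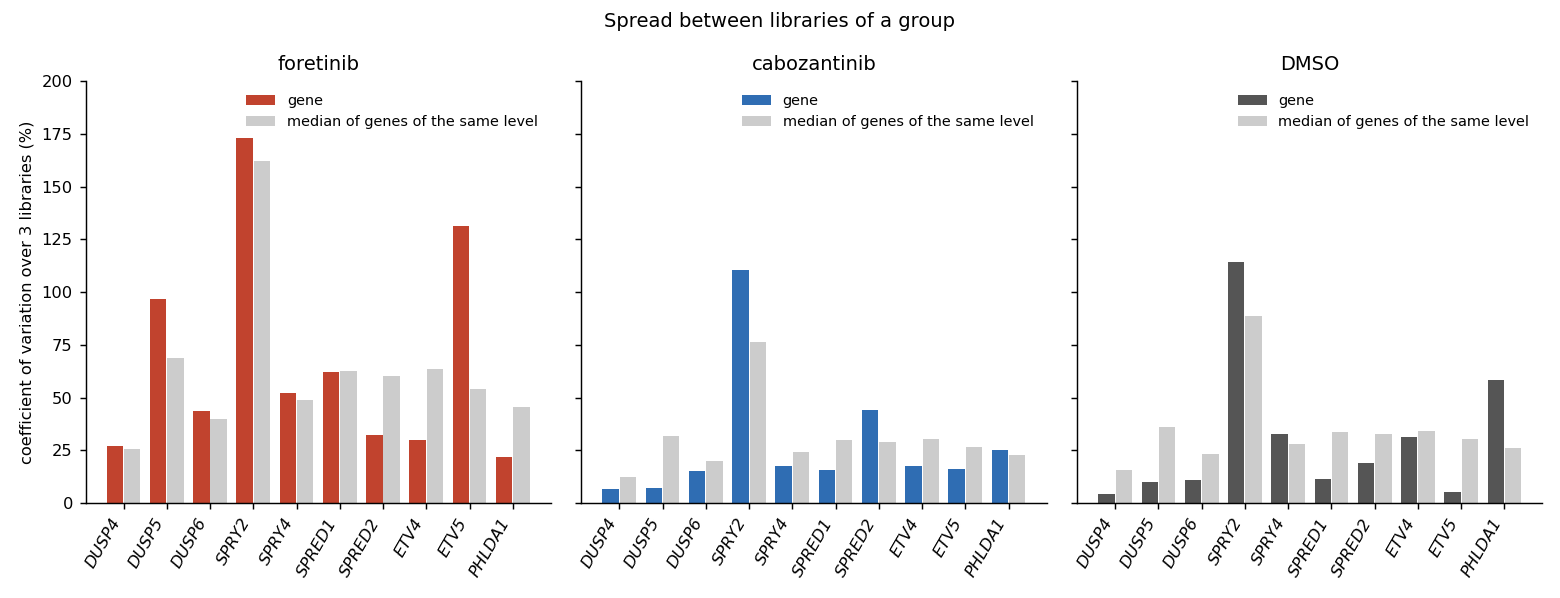
Coefficient of variation over 3 libraries (y axis, percent) of each gene (coloured bars) and the median over tested genes within 1.5-fold of its mean (grey bars), in foretinib, cabozantinib and DMSO libraries. Foretinib bars reach 96.6% for DUSP5, 131% for ETV5 and 173% for SPRY2, while in DMSO libraries DUSP4, DUSP5, DUSP6, SPRED1 and ETV5 lie between 4.25% and 11.2%.

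The 2 compounds were compared directly as 1 pair, at the same dose and time, with p adjusted over all 12642 genes. None of the 10 genes differed past the threshold, and 0 of 10 were lower with foretinib than with cabozantinib without overlap, where the share over all tested genes was 9.7%. At an unadjusted p below 0.05 in the lower direction the count was also 0 of 10, where the share over all tested genes was 8.08%. The intervals show what this design could have missed. DUSP4 was the tightest, with a log2 difference of -0.20 (95% interval -0.65 to 0.26, limma adjusted p 0.717). DUSP6 was at 0.34 (95% interval -0.47 to 1.15), SPRY4 at -0.24 (-1.24 to 0.77), SPRED1 at -0.07 (-1.27 to 1.13) and SPRED2 at -0.62 (-1.82 to 0.58). The SPRY4 value was positive without foretinib library 4, and that of SPRED1 without foretinib library 1 or 4 or cabozantinib library 5. ETV4 was at 0.45 (-0.69 to 1.59) and PHLDA1 at 0.20 (-0.74 to 1.14).

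Wider still were DUSP5 at -0.96 (95% interval -3.85 to 1.93), ETV5 at -2.47 (-5.78 to 0.83; 0.067 without foretinib library 2) and SPRY2 at -1.76 (-8.79 to 5.27). For DUSP5 the sign depends on the scale: the foretinib mean of 1024 ± 989 normalised reads was 1.57 times the cabozantinib mean of 651 ± 46.1, whereas the log2 difference was negative and stood at 1.16 without foretinib library 4, the one at 16.7 reads. The intervals of all 10 genes include differences of more than 1.5-fold, so they do not show that the compounds act alike. Over the 10 genes the median log2 difference was -0.22, against -0.44 over all tested genes and -0.11 over those with a mean of at least 500.

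Relatives of these genes were read beside them. Of 10 other MAP kinase phosphatases 9 were tested and none passed the adjusted threshold in any comparison. With foretinib 2 of the 9 (DUSP3 and DUSP14) were below DMSO without overlap, where the share over all tested genes was 7.69%. Below cabozantinib without overlap were 3 of the 9 (DUSP3, DUSP14 and DUSP16), where that share was 9.7%. DUSP14, a small atypical phosphatase, was at 1512, 1269.5 and 2274 normalised reads with foretinib and 3143, 3172 and 2290.3 with cabozantinib, against 2935, 2621 and 2834 with DMSO. The foretinib libraries were below all DMSO and all cabozantinib libraries, with log2 differences of -0.77 from DMSO (limma adjusted p 0.528) and -0.80 from cabozantinib (limma adjusted p 0.480). DUSP3 was lower in all foretinib libraries too, at 1348, 923 and 0 normalised reads, against 2199, 1457 and 2099.8 with DMSO (limma adjusted p 0.531). DUSP9 was listed at 0 in all 3 foretinib libraries, against 0, 399 and 258 normalised reads with DMSO. The medians over the 9 tested genes were -2.21 with foretinib against DMSO, 0.02 with cabozantinib against DMSO and -2.94 with foretinib against cabozantinib. Genes of the same level had medians of -1.95, 0.11 and -2.17 in those comparisons. Relative to them the medians over the 9 genes were -0.74, 0.01 and -0.50, and 4 of the 9 (DUSP8, DUSP22, DUSP10 and DUSP16) were positive with foretinib against DMSO.

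The nearest relatives outside the phosphatases were mostly low. SPRY1 was at 143 ± 135 normalised reads with foretinib, 217 ± 171 with cabozantinib and 216 ± 243 with DMSO, with overlap throughout. SPRED3 was at 0, 1 and 0 reads in foretinib libraries, and DMSO library 4 was at 0 as well. SPRY3, ETV2 and ETV7 were listed at 0 in all 9 libraries. PHLDA2, the paralog of PHLDA1, was at 3686 ± 1080 normalised reads with foretinib, 4201 ± 1521 with cabozantinib and 4471 ± 1713 with DMSO, and its log2 difference from DMSO was -0.25 with foretinib and -0.08 with cabozantinib. ETV1, the third PEA3 factor, was at 2026 ± 714 normalised reads with foretinib, 1794 ± 205 with cabozantinib and 1414 ± 1515 with DMSO. ETV3, a repressor of the ETS family, was below every DMSO library with foretinib, at 354, 319 and 0 normalised reads, against 603, 593 and 504 with DMSO (limma adjusted p 0.650). It was 1 of 3 tested ETV relatives so separated, where the share over all tested genes was 7.69%. ETV6 was the relative whose cabozantinib libraries did not overlap the DMSO ones, and they were above them, at 192 ± 96.5, against 73.2 ± 44.5 with DMSO (limma adjusted p 1.000). The gap was narrow, as the lowest cabozantinib value was 125.6 and the highest DMSO value 122.6. The share over all tested genes in that direction was not counted.

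Of the other transcripts that depend on ERK, none passed the adjusted test. In a list of 25 such genes, 20 were tested and 0 had an adjusted p below 0.05 in any comparison. All 20 had a negative log2 difference with foretinib against DMSO, 4 of them at an unadjusted p below 0.05, where the share lower at that p over all tested genes was 6.9%. The median was -2.26, but tested genes within 1.5-fold of each gene's level had themselves a median difference of -1.86 (the median over the 20). Relative to genes of the same level 15 of the 20 were negative and 5 positive (UPP1, IER3, CCND1, TRIB1 and IER2), with a median of -0.96, and 5 of the 20 had a higher mean with foretinib than with DMSO. Of the 20, 13 were negative with cabozantinib against DMSO, with a median of -0.59, or -0.74 once the median of similarly abundant genes was subtracted. After that subtraction 13 were negative and 7 positive. Groups did not overlap, in the lower direction, for 3 of the 20 with foretinib against DMSO (EGR1, MAFF and PLAUR), where the share over all tested genes was 7.69%, and for 3 with cabozantinib against DMSO (EGR1, PLAUR and KLF6), where it was 4.71%. EGR1, an immediate early zinc finger factor, was the clearest. It stood at 1029, 902 and 208 normalised reads with foretinib and 2330.2, 2610.0 and 2913 with cabozantinib, against 4430.1, 4525 and 4944 with DMSO. The 3 groups did not overlap one another. The log2 difference of EGR1 was -2.998 with foretinib against DMSO (95% interval -4.13 to -1.87, limma adjusted p 0.358), -0.83 with cabozantinib against DMSO (-1.96 to 0.30, limma adjusted p 1.000) and -2.17 with foretinib against cabozantinib (-3.30 to -1.04, limma adjusted p 0.377). None of the 10 feedback genes showed this graded order without overlap.

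The proteins that read or carry the signal were also measured at the RNA level. Of 10 regulators of these genes' transcription, all 10 were tested and none passed. CIC, the repressor of the PEA3 genes, was at 5044, 6580.1 and 4110.1 normalised reads with foretinib and 3020, 3717 and 4140 with cabozantinib, against 4814, 3753 and 3470.2 with DMSO, with overlap between foretinib and DMSO. ELK1, an ETS factor phosphorylated by ERK, was above both other groups in foretinib libraries, at 2859 ± 295 normalised reads, against 1951 ± 697 with cabozantinib and 2178 ± 564 with DMSO (log2 difference from DMSO 0.42, limma adjusted p 0.681). Of 15 partners and substrates of the feedback proteins, all 15 were tested and none passed. With foretinib 2 of the 15 (MAPK3 and TESK1) were below DMSO without overlap, where the share over all tested genes was 7.69%. MAPK3 was at 328, 568 and 113 normalised reads with foretinib, against 1046, 735 and 819 with DMSO. TESK1, a kinase bound by Sprouty proteins, was at 37.0, 55.7 and 348 normalised reads with foretinib, against 1107, 880.0 and 767 with DMSO (log2 difference -3.32, 95% interval -5.93 to -0.72, limma adjusted p 0.465). This difference is not set against genes of the same level. With cabozantinib TESK1 was at 508, 1494 and 283 normalised reads, overlapping both other groups. NF1, which encodes the neurofibromin recruited by SPRED proteins, was at 5049 ± 1851 normalised reads with foretinib, 4933 ± 668 with cabozantinib and 6028 ± 1525 with DMSO, with overlap.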

How the data were processed

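RNA from 9 cultures of NCI-H1155 cells was sequenced, 3 libraries for each of foretinib, cabozantinib and DMSO, prepared with the NuGEN Encore Complete system, per the labels' protocols. The authors deposited 1 normalised signal value per gene and library. Per the submitters' processing notes, TopHat2 2.0.13, Cufflinks 2.2.1, HTSeq, DESeq2 and build hs37d5 were used. No source used here gives their roles, the annotation, the strand setting or any filter. Dividing each column by its smallest step gave whole reads for 100% of the deposited values (tolerance 1e-06), and these reads gave the library totals. For 3 columns (DMSO 4, cabozantinib 3 and 4) the step lay near 1. No molecular identifiers were used, so duplicates of a molecule were not separated. Replicates of a group differed by more than counting noise (lowest chi-square per degree of freedom 123.8).

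Values were tested as log2(value + 1) with limma 3.58.1 in R 4.3.3, with a mean-variance trend and all 9 libraries in 1 model. The test covered the 12642 genes that reached 10 in 3 or more libraries; 8208 of the 23369 genes were at 0 in all libraries. Calls were two-sided at a Benjamini-Hochberg adjusted p below 0.05 over all tested genes. The script was tested on simulated data. All 10 genes are named in every comparison; of the other lists some paralogs and some of the genes with the smallest p or with groups that did not overlap are described, and CIC and NF1 were added after their values were seen. The 10 genes and the lists were chosen with earlier results of these data known. Lengths and overlaps came from GENCODE v29 (build GRCh38), another build than that of the files, and promoters from RefSeq (GRCh38.p14). Alternatives were pseudocounts of 10 and 100, 2 other filters, quantile and TMM scaling, the 6 compared libraries alone, a replicate block, edgeR 4.0.16 and DESeq2 1.42.0 on recovered reads, and leaving out each library.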

Additional observations from a re-analysis of the deposited data

How the results depend on the processing

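None of the 10 genes was called in any comparison under any alternative run, and the smallest limma, edgeR or DESeq2 adjusted p of these genes was 0.109 (SPRED2 with foretinib against DMSO, DESeq2) and, leaving out 1 library, 0.179. Over all genes, DESeq2 called 650 with foretinib against DMSO, 47 with cabozantinib against DMSO and 618 with foretinib against cabozantinib, and quantile normalisation called 1 with foretinib against DMSO, where limma called 0. The cause was not tested. Of 297 log2 differences of single genes under the alternatives, 17 had the other sign, as had 12 of 180 that left out a library.

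With foretinib against DMSO, SPRY2 was at 0.092 with edgeR and 0.13 with DESeq2, and ETV4 at -0.02 with quantile normalisation and -0.0077 with edgeR. With foretinib against cabozantinib, DUSP5 was at 0.015 with quantile normalisation, 0.62 with edgeR and 0.65 with DESeq2. SPRY2 was at 0.24 with a pseudocount of 100, 1.57 with quantile normalisation, 1.44 with edgeR and 1.48 with DESeq2, and SPRED1 at 0.051 with edgeR and 0.084 with DESeq2. Leaving out 1 library gave DUSP5 values from -3.25 to 0.16, DUSP6 from -0.56 to 0.14 and ETV4 from -0.25 to 0.22 with foretinib against DMSO. With cabozantinib against DMSO it gave SPRY2 values from -3.28 to 1.10 and the median of the 10 genes from -0.71 to -0.32. With foretinib against cabozantinib it gave DUSP5 values from -2.25 to 1.16, SPRY4 from -0.63 to 0.17, SPRED1 from -0.54 to 0.20 and ETV5 from -4.32 to 0.067. SPRED2 with foretinib against DMSO ran from -1.60 to -1.11 and DUSP6 with cabozantinib against DMSO from -0.76 to -0.56.

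The library numbers gave no clear answer on pairing. The correlation of deviations from the group mean was -0.0022 to 0.0288 over 5 same-numbered pairs and -0.0244 to 0.0308 over 22 other pairs. The 5 same-numbered values were 0.0288, 0.028, 0.0198, 0.0068 and -0.0022. With 5 pairs and overlapping ranges, this check cannot tell whether the numbers pair the samples. A replicate block called 0 genes in each comparison. With it DUSP6 was at 0.18 with foretinib against DMSO, DUSP4 at 0.085 and SPRY4 at 0.023 with cabozantinib against DMSO, and SPRY2 at 1.48 with foretinib against cabozantinib. With cabozantinib against DMSO the block put DUSP5 at -0.19, ETV5 at -0.998 and PHLDA1 at 0.097. That fit also draws on foretinib libraries 2 and 4, and cabozantinib library 3 shares its number with no other library. The same-numbered libraries themselves were apart for DUSP5. It was at 625 and 624 normalised reads in cabozantinib libraries 4 and 5, against 1271 and 1449.8 in DMSO libraries 4 and 5. SPRY2 gave no value at a mean of at least 500. With 3 libraries a group and wide foretinib spread, the intervals limit what could be seen.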
